A study of Homo sapiens with 45 samples.

Results

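The genes described here are the NF-kappaB subunits RELA, RELB, REL, NFKB1 and NFKB2 and the feedback inhibitors NFKBIA, NFKBIE, TNFAIP3 and BIRC3, 9 genes in all, which were chosen by name. Of these, 8 had a probe set in the table of gene names used, with 17 probe sets among the 54675 on the array and among 19775 named genes. No probe set of BIRC3 carried that name alone, and BIRC3 was not analysed here. Where a gene had several probe sets, the brightest on average over the arrays is called the main probe set and stands for the gene, and the other probe sets are given where they differ. The data are 45 Affymetrix U133 plus 2.0 arrays of A375 cells, an established human melanoma line. The cells were grown with serum, and the medium was changed to opti-MEM with a lipid reagent for transfection. Transfected cells were harvested 48 hours later, and the labels of the untreated arrays also give 48 hours. On 39 arrays the cells had received a pool of siRNAs against a single gene, with 1 culture and 1 array per target, on 3 arrays control siRNA, and 3 arrays were of untreated cells. The study placed 7 of the 39 arrays in batch KD3, 9 in KD1 and 23 in KD2, whereas for the control siRNA and untreated arrays no batch is given. The labels give an siRNA dose of 100 nM and the study's methods 2 lower ones, so the dose is uncertain.

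NF-kappaB is a family of dimeric transcription factors made from the products of RELA, RELB, REL, NFKB1 and NFKB2. In resting cells the dimers are held in the cytoplasm by IkappaB proteins, of which NFKBIA encodes IkappaB-alpha and NFKBIE IkappaB-epsilon. Signals from receptors of TNF, interleukin 1 and microbial products activate the IkappaB kinase complex, the IkappaB proteins are degraded, and the dimers enter the nucleus and induce chemokines, adhesion molecules and survival genes. Among the induced genes are the pathway's own inhibitors, NFKBIA and TNFAIP3, which encodes the ubiquitin-editing enzyme A20, and some of its subunits, so that the pathway limits itself. Most of this control acts on protein stability and location, which an array of RNA does not measure.

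The promoters of these genes are shown because feedback by NF-kappaB acts through kappaB sites in them. The windows come from RefSeq (GRCh38.p14) and run from 250 bases before a transcription start to 50 bases after it. They were searched on both strands for the kappaB consensus, the DNA motif that NF-kappaB dimers bind, and its matches are in capitals. A window was found for 7 of the 9 genes, without RELB and NFKBIE, and 6 of these 7 genes had at least 1 match in a window, against 13.3% of the 27305 genes with a window. By window these were 7 of 11, against 11.3% of all 35116 windows, and among the NF-kappaB targets with a window 12 of 23 had a match. A match describes these letters only and is no evidence of binding. The window of NFKBIA (chr14:35404700-35404999, minus strand) had 1 match, which began 81 bases before the start, and that of TNFAIP3 (chr6:137867009-137867308, plus strand) had 2 matches, at 67 and 55 bases before the start. Those of REL (chr2:60881324-60881623, plus strand) and NFKB1 (chr4:102501109-102501408, plus strand) had 1 match each, at 47 and 49 bases before the start. NFKB1 also has a second window, not printed, which had no match. Of the 3 windows of NFKB2, the window printed (chr10:102394328-102394627, plus strand) had 2 matches, at 107 and 78 bases before the start. The first window of NFKB2 had no match and the third had 2 matches. Neither of the 2 windows of RELA had a match, and the window printed lies at chr11:65663808-65664107 on the minus strand. CXCL2, a chemokine gene and a textbook NF-kappaB target, is shown for comparison (chr4:74099146-74099445, minus strand), with its match 78 bases before the start.
NFKBIA: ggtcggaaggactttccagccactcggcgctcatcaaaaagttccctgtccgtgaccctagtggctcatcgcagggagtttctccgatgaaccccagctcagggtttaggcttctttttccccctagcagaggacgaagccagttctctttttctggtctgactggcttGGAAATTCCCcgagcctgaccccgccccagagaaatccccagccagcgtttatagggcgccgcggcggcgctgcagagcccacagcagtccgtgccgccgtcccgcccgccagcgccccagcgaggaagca
TNFAIP3: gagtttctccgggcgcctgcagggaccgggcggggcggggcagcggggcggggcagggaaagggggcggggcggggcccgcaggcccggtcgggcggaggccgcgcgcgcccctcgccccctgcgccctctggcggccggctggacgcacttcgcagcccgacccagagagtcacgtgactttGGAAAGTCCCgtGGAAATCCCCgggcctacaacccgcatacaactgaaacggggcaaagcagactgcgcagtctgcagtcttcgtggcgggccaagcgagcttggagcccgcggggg
REL: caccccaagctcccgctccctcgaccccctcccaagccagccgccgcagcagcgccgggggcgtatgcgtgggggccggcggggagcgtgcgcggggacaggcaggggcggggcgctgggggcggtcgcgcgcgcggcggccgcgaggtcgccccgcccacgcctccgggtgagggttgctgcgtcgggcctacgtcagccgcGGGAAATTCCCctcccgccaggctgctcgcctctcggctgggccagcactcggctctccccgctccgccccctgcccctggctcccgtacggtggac
NFKB1: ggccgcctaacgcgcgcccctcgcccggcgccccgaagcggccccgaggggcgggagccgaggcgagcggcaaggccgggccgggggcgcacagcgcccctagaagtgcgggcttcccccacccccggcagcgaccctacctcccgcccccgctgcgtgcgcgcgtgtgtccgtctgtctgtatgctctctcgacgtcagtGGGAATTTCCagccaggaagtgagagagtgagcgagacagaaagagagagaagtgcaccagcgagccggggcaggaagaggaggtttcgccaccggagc
NFKB2: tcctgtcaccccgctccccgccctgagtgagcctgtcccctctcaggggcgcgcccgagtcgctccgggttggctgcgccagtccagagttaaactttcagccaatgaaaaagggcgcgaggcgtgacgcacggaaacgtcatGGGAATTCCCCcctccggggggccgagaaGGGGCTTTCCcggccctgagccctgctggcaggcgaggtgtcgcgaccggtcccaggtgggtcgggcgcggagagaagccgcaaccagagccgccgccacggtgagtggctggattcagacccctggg
RELA: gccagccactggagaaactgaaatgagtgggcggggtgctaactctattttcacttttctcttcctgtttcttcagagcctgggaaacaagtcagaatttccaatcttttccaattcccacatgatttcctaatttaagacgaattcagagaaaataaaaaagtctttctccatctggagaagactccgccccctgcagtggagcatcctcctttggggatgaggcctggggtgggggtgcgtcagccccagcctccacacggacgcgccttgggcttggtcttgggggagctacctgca
CXCL2: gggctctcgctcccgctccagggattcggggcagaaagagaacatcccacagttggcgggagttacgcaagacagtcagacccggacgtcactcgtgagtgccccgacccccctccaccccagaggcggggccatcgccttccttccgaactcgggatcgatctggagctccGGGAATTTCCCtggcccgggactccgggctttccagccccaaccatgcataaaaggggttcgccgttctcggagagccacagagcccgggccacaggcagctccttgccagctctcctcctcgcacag

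Values below are log2 intensities. Log2 differences are those of an array from the median of its own batch, and 0.5 was the size that counted. A log2 value of 8.59, or 1.5 times the median signal of a spiked-in bacterial control (BioB, 3' end), was taken as the limit of noise. This limit is strict, since the study regards signals from it upwards as well above noise. Of the 19775 genes, 4800 had a median at or above it, and a gene below it was not necessarily absent. A log2 difference that reaches below this limit is that of the normalised values and does not measure the change in RNA precisely. In KD2 the medians of RELA (8.66) and NFKB1 (9.69) lay above it, and those of the other 6 genes, from 6.07 to 8.37, lay below it. Of 7 melanocyte lineage markers measured, 3 were above noise in both the RELA and PIK3CB siRNA arrays, namely MITF, SOX10 and S100B. SOX10 and S100B were at 10.8 and 10.0 in the RELA siRNA array and 10.9 and 9.70 in the PIK3CB siRNA array. The pigment genes MLANA, TYR, PMEL and TYRP1 were not above noise, at 3.28 to 5.73 in these arrays. None of the 7 leukocyte, 6 fibroblast or 4 endothelial markers measured was above noise in either array. The array medians lay between 5.06 and 5.15.

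The RELA siRNA array shows what a lower level of RELA RNA, at 50% of the batch median, went along with. RELA encodes the transactivating partner in the most common NF-kappaB dimer, and its protein was not measured. RELA was at 7.66 in the RELA siRNA array, against a lowest value of 8.38, a median of 8.66 and a highest value of 8.80 in the other 22 KD2 arrays. The RELA siRNA array thus lay below every other KD2 array, at a log2 difference of -0.999, whereas the other 22 had an SD of 0.10. This position has an exact one-sided rank p of 0.0435, the smallest that 23 arrays can give. The study kept siRNAs that lowered their targets, so this is a check of the label and not an independent result. Its other probe set was also lowest in the RELA siRNA array, at 6.64 against 6.79 to 7.86, but the difference of -0.90 stood less apart, with the FOXM1 siRNA array at -0.75. RELA itself was below noise in the RELA siRNA array.

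By their main probe sets, the other NF-kappaB genes stayed within the range of the other KD2 arrays. For each, the top of that range was the PIK3CB siRNA array. RELB, a subunit of the non-canonical pathway, was at 5.92 in the RELA siRNA array, against 5.87 to 7.34 with a median of 6.17 in the other KD2 arrays, and its log2 difference of -0.24 was the largest after that of RELA. The inhibitor genes NFKBIE, TNFAIP3 and NFKBIA had log2 differences of 0.16, 0.13 and 0.01, and the subunit genes NFKB2, NFKB1 and REL had 0.05, -0.04 and 0.00. NFKBIE, at 6.67, was higher than in all other KD2 arrays but that of PIK3CB siRNA. Thus RELA alone of the 8 genes differed by 0.5 or more, where 0.268% of all genes did in that array. One of the other probe sets of NFKB2 was lowest of the 23 arrays in the RELA siRNA array, at 5.46 against 5.68 to 6.72 in the others, a difference of -0.49 that the main probe set (0.05) did not show, and the third was at -0.15. With the control siRNA mean in place of the batch median, RELB (-0.69) and NFKB2 (-0.53) also passed 0.5, but the batches of those control arrays are not given. The control siRNA arrays also differed among themselves, with RELB at 6.72, 6.20 and 6.93 and NFKB2 at 6.86, 6.04 and 7.05.

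Genes that NF-kappaB is known to induce stayed near the batch median as a list in the RELA siRNA array. Of 28 measured targets, 16 were above and 11 below the batch median. The median log2 difference of the list was 0.05, against 0.00 over all genes, and 1 target passed 0.5. This was CXCL2, which encodes a neutrophil-attracting chemokine and was higher, at 6.43 against a batch median of 5.60, with both values below noise. Only the PIK3CB siRNA array was higher for CXCL2 in KD2. LIF, an interleukin 6 family cytokine, was at -0.37, and ICAM1, a leukocyte adhesion molecule, was at -0.32 (8.07 against 8.13 to 10.3 in the other KD2 arrays, of which it was the lowest). CXCL1, another such chemokine, was at 0.31. Among the ligands, IL1A was at -0.27, TNF at -0.17 and IL1B at 0.15. The atypical IkappaB gene NFKBIZ was at 0.46, with only the PIK3CB siRNA array higher in KD2. The 10 genes of the IkappaB kinase complex and its upstream kinases lay between -0.20 and 0.18, the 10 other negative regulators between -0.14 and 0.09, and the 18 receptors and adaptors between -0.30 (IRAK1, a kinase of interleukin 1 signalling, which was lowest of the KD2 arrays at 11.4) and 0.14 (RBCK1, a ligase for linear ubiquitin chains). With 1 culture the array has no replicate.

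**Figure D1:**
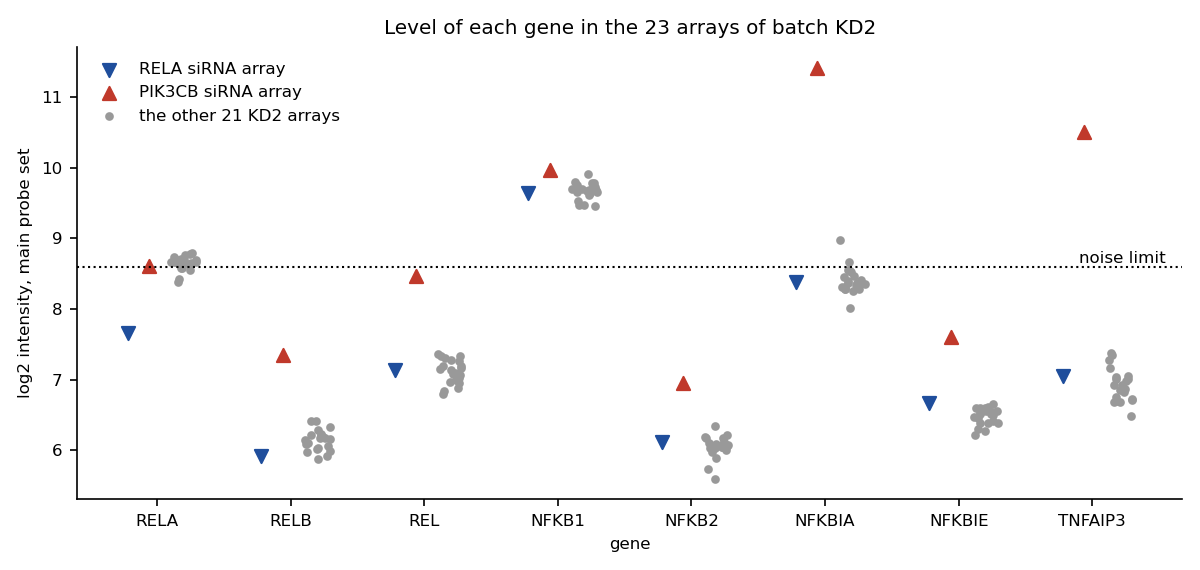
Level of each gene (log2 intensity of the main probe set, vertical axis) in the RELA siRNA array (blue), the PIK3CB siRNA array (red) and the other 21 arrays of batch KD2 (grey), with the noise limit of 8.59 dotted. RELA lies apart at 7.66 in the RELA siRNA array alone, and 7 genes are highest in the PIK3CB siRNA array, NFKBIA at 11.4 and TNFAIP3 at 10.5.

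The array in which these genes stood furthest from the batch was that of PIK3CB, which encodes the p110-beta catalytic subunit of phosphoinositide 3-kinase. This array was already known from earlier results of these data to have high inflammatory genes. The inhibitor genes TNFAIP3 and NFKBIA were higher there than in the median KD2 array by 3.58 and 3.04 on the log2 scale, and REL, RELB, NFKBIE and NFKB2 by 0.88 to 1.33. Because the batch medians lay below noise, TNFAIP3 was at least 3.78-fold and NFKBIA at least 7.11-fold higher when counted against the noise limit, and no fold is given for the other 4, which were below noise in both. These 6 of 8 genes differed by 0.5 or more, where 0.996% of all genes were higher by as much. For 7 of the 8 genes the PIK3CB siRNA array was the highest of the 23, as it was for 4% of all genes. PIK3CB itself was at 7.54 in its own array, against 8.04 to 8.99 in the other KD2 arrays, a difference of -1.14. With 1 culture, loss of PIK3CB and another property of this culture or its siRNA pool cannot be told apart.

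TNFAIP3 was at 10.5 in the PIK3CB siRNA array, against 6.49 to 7.38 with a median of 6.92 in the other 22 KD2 arrays. Its other probe set was at 9.38 against 5.46 to 6.45, with the same log2 difference of 3.58. NFKBIA was at 11.4 against 8.01 to 8.98 (log2 difference 3.04). Both inhibitor genes were thus far outside the range of the other arrays. A second, dim probe set of NFKBIA was at 4.86 against 4.40 to 5.11 and did not follow, so that the mean over both probe sets of NFKBIA gave 1.58.

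Among the subunits, REL, which encodes the c-Rel protein, was at 8.47 against 6.80 to 7.36 (log2 difference 1.33). Of its 4 other probe sets, 2 were also highest in the PIK3CB siRNA array (1.53 and 1.01), whereas the other 2 (0.23 and 0.13), with means under 3.5 over all arrays, were within the range of the others. RELB was at 7.34 against 5.87 to 6.42 (1.18), and NFKBIE, which encodes IkappaB-epsilon, was at 7.60 against 6.21 to 6.67 (1.08). NFKB2, whose product p100 is processed to p52, was at 6.95 against 5.60 to 6.35 (0.88), and the probe set of NFKB2 that was lowest in the RELA siRNA array gave 0.77, but the third probe set was at -0.02 and the mean over the 3 was 0.53. NFKB1, the gene of p105 and p50, was at 9.97 against 9.45 to 9.91 and differed by 0.28, just above the range of the others. RELA, at 8.60 against 7.66 to 8.80, lay within it (-0.06).

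These differences mostly concern genes near or below noise, since the batch medians of the 6 genes that passed 0.5 all lay below the limit and only NFKBIA and TNFAIP3 were above it in the PIK3CB siRNA array. Relative to the control siRNA mean, NFKB2 was higher by 0.31 and no longer passed, while the other 5 did.

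The wider pathway was uneven in the PIK3CB siRNA array, with a higher median in the lists of targets, other IkappaB genes and ligands than in those of the signalling machinery. Of 28 measured NF-kappaB targets, 20 were higher by 0.5 or more, where 0.996% of all genes were. Of the 28, 23 were at their highest of the 23 arrays, as were 4% of all genes. The median log2 difference of the targets was 1.43, against -0.01 over all genes. The lists were chosen with the high inflammatory genes of this array already known, so these counts describe the array and are no independent evidence. CXCL2, whose promoter is printed above, was at 11.7 in this array, against 4.89 to 6.43 in the other KD2 arrays (log2 difference 6.12, or at least 8.74-fold against the noise limit). CXCL3 (5.40), CCL2 (5.37), which attracts monocytes, CCL20 (4.57), CXCL1 (4.21), CXCL8 (4.13), which attracts neutrophils, CXCL10 (3.76) and the survival gene BCL2A1 (2.78) followed. Against the noise limit CXCL1 was at least 9.64-fold, CXCL3 4.66-fold, CCL20 2.41-fold and CCL2 2.26-fold higher. The batch median of CXCL8 (8.81) was above noise. CXCL10 (8.21) and BCL2A1 (7.30) were below noise even in this array, so no fold is given for them. Of these 28 targets, 2 had a median above noise and 11 were above it in the PIK3CB siRNA array. Of 3 other IkappaB genes, NFKBIZ (2.70) and NFKBID (0.67) were higher and NFKBIB was at 0.03. Of 6 ligands, IL1A (1.99), IL1B (1.08), TNF (0.90) and LTB (0.80) were higher, and LTA was at -0.21 and TNFSF13B at -0.06. Only IL1A among the ligands was above noise in this array. Of the targets, 8 did not pass, among them IL6 (0.35), CCL5 (0.16) and BCL2L1 (-0.11).

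Among 10 other negative regulators 3 were higher by 0.5 or more, namely TNIP1 (0.71), an A20-binding protein, the deubiquitinase CYLD (0.60) and the ubiquitin ligase BIRC2 (0.54), with a median of 0.13. None of the 10 genes of the IkappaB kinase complex and its upstream kinases was higher by as much, with a median of 0.05 and IKBKG, the regulatory subunit NEMO, at -0.40 and the lowest of the 23 arrays (7.88 against 8.02 to 8.46). Of 18 receptors and adaptors, TLR2 was at 0.65 and TLR4 at -0.51, with a median of -0.02. The mean levels of markers of other cell types were not higher in the PIK3CB siRNA array than in the rest of the batch. The 7 leukocyte markers averaged 4.88 in this array, against 4.79 to 5.10 in the other KD2 arrays, the 4 endothelial markers 4.74 against 4.71 to 5.01, and the 6 fibroblast markers 5.40 against 5.44 to 5.75. PTPRC, which marks all leukocytes, was at 3.78. After AKT1 siRNA, against a kinase downstream of phosphoinositide 3-kinase, the main probe sets of the 8 genes differed by -0.31 to 0.11. REL was at -0.31, TNFAIP3 at -0.24 and NFKBIA at -0.12, against 1.33, 3.58 and 3.04 in the PIK3CB siRNA array. Some other probe sets differed more. The probe set of REL at 1.53 in the PIK3CB siRNA array was at -0.66 after AKT1 siRNA, the lowest of the 39 arrays. The dim probe set of NFKBIA was at 0.39, the highest of the 39.

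**Figure D2:**
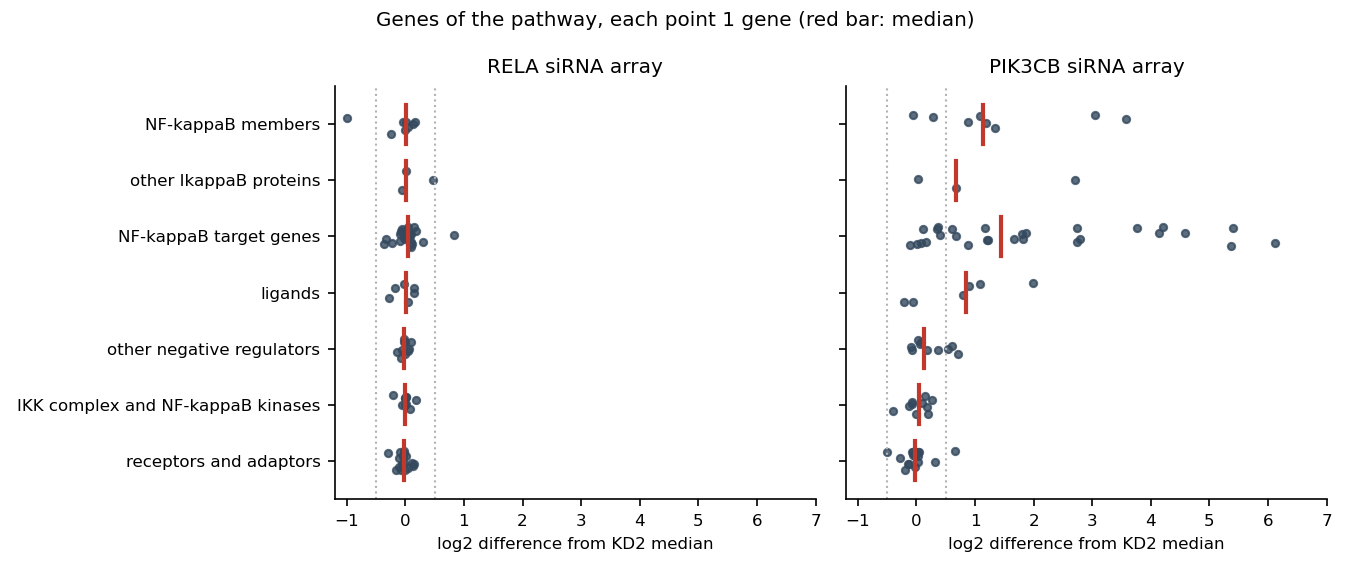
Log2 difference from the KD2 median (horizontal axis) of each gene of 7 lists of the pathway (rows) in the RELA siRNA array (left) and the PIK3CB siRNA array (right), with 1 point per gene, the list median in red and dotted lines at -0.5 and 0.5. The target genes reach 6.12 in the PIK3CB siRNA array with a median of 1.43, and have a median of 0.05 in the RELA siRNA array.

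Over all 39 targeting siRNA arrays, 12 of 312 values of the 8 genes (3.85%) differed from the batch median by 0.5 or more, where 1.26% of the values of all genes did. Without the PIK3CB siRNA array 6 of 304 (1.97%) did. These 6 lay in 5 arrays, and 33 of the 39 arrays had none. These counts are of main probe sets, and other probe sets passed 0.5 in some of those 33 arrays. Among them were RELA after CDC2 siRNA (0.72) and FOXM1 siRNA (-0.75) and TNFAIP3 after CHEK1 siRNA (0.65). A probe set of REL was at 0.60 after CDK7 siRNA, 0.54 after PCNA, -0.61 after NMI and -0.66 after AKT1 siRNA. The median of the 8 genes ranged from -0.15 to 0.13 in the other 38 arrays, against 1.13 in the PIK3CB siRNA array.

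The lowest differences from the batch median of NFKB2 and RELB, the subunits of the non-canonical dimer, were in the array of RB1 siRNA, against the retinoblastoma protein. NFKB2 was at 6.06 in the RB1 siRNA array, against 6.58 to 7.56 with a median of 7.12 in the other 8 KD1 arrays (log2 difference -1.04), and RELB was at 6.03 against 6.46 to 7.04 with a median of 6.64 (-0.58). Both genes lay below every other KD1 array, at levels near the KD2 medians of 6.07 and 6.16, and against the median of all 45 arrays they differed by -0.15 and -0.27. In the RB1 siRNA array these 2 of 8 genes were lower than in the KD1 median by 0.5 or more, where 1.34% of all genes were. The other probe sets of NFKB2 did not follow, at -0.15 and -0.05, and the mean over its probe sets, at -0.48, did not pass 0.5. RELB has a single probe set here. All these values were below noise. RB1 itself was at 7.52 in its own array, against 9.06 to 9.73 in the other KD1 arrays (-1.73). Of the other genes in the RB1 siRNA array, TNFAIP3 was at -0.31, RELA at -0.16, NFKBIA at -0.06, NFKB1 at -0.02, REL at 0.00 and NFKBIE at 0.04.

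The RB1 siRNA array was described at this length, and the other 3 values of main probe sets past 0.5 were named, after the values were seen. NFKBIA was at 8.98 in the CDC37 siRNA array (log2 difference 0.61) and at 9.48 in the FOXO3A siRNA array (0.54), the highest of KD1, whose other arrays lay between 8.76 and 9.09. NFKB2 was at -0.51 in the TCEA1 siRNA array, where NFKBIE also had its lowest difference over the 39 arrays (-0.38). CDC37 encodes a kinase co-chaperone, FOXO3A is the label's name for the forkhead factor FOXO3, and TCEA1 encodes a transcription elongation factor.

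The other lowest and highest differences of the main probe sets, given here, were smaller. RELA was highest after CDC2 siRNA, against the mitotic kinase CDK1, at 0.26, and lowest after RELA siRNA. The other probe set of RELA was also highest after CDC2 siRNA, at 0.72. REL (-0.34) and NFKBIA (-0.36) were lowest after siRNA against FOXM1, a factor of mitotic gene expression, and NFKB1 (-0.27) after siRNA against the helicase subunit MCM2. TNFAIP3 was lowest after siRNA against STAT6, the factor downstream of interleukin 4, at 6.49 and a log2 difference of -0.44. For RELB, REL, NFKB1, NFKB2, NFKBIA, NFKBIE and TNFAIP3 the highest difference over the 39 arrays was that of the PIK3CB siRNA array. NFKB1 varied least, with an SD of 0.13 over the 39 differences and no value past 0.5. Without the PIK3CB siRNA array the SD was 0.18 in place of 0.51 for NFKBIA and 0.22 in place of 0.61 for TNFAIP3.

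**Figure D3:**
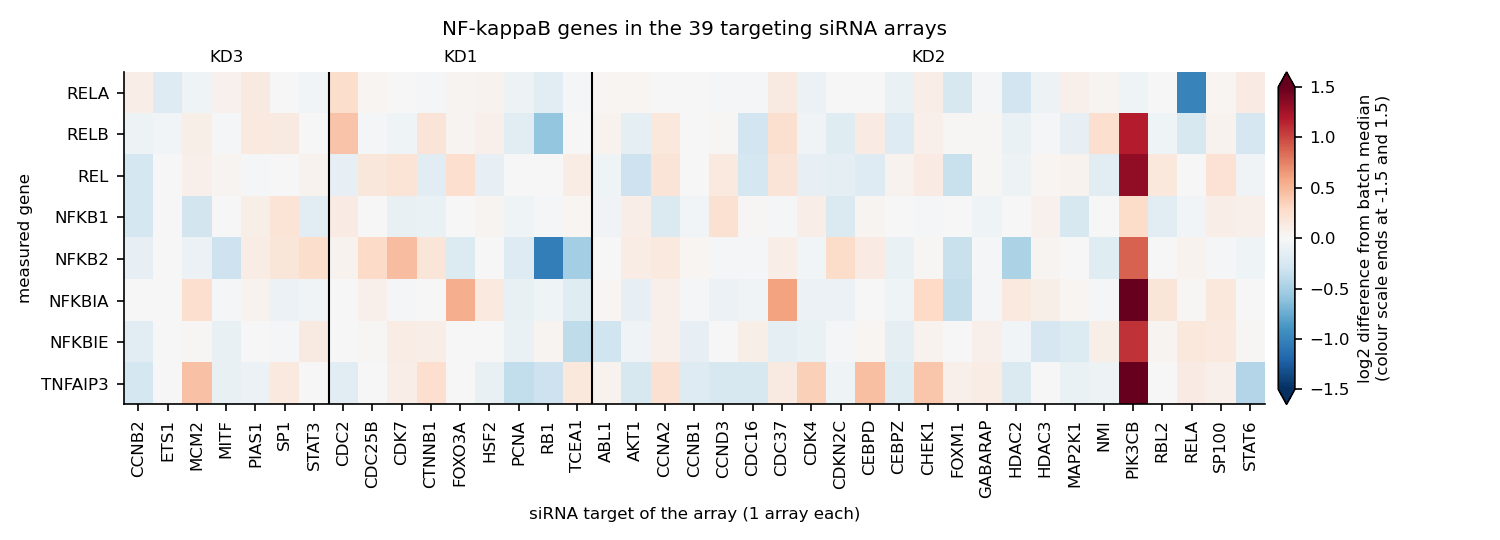
Log2 difference from the batch median (colour, red for higher and blue for lower, with the largest differences at full colour) of the 8 genes (rows) in the 39 targeting siRNA arrays (columns, named by target and grouped by batch). The PIK3CB column is higher in 6 genes by 0.88 to 3.58, and the RELA and RB1 columns hold the lowest differences, -0.999 for RELA and -1.04 for NFKB2.

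The level of several of these genes differed between batches, which hold different siRNAs, so that batch and target cannot be told apart. In limma, 5 of the 8 genes were higher in KD1 than in KD2 at an adjusted p under 0.05, where 44.5% of all probe sets passed in either direction, 3 passed in KD3 against KD2 (41.8% of all), and 3 passed in KD3 against KD1 (48.1% of all). With so large a part of all probe sets passing, these counts are no particular result of the NF-kappaB genes. The counts are of main probe sets and the shares are of all probe sets, so the comparison is rough. RELA ranged from 8.10 to 8.43 with a median of 8.29 in KD3, from 9.33 to 9.75 with a median of 9.49 in KD1 and, without the RELA siRNA array, from 8.38 to 8.80 in KD2. The KD1 arrays lay above all other targeting siRNA arrays, and the ranges of KD3 and KD2 overlapped. RELA was higher in KD1 than in KD2 by 0.90 ± 0.07 on the log2 scale (SE, adjusted p = 5.1e-14) and lower in KD3 than in KD1, at -1.21 ± 0.09 (adjusted p = 3.5e-15) and in KD3 than in KD2, at -0.31 ± 0.08 (adjusted p = 0.0012). Its other probe set gave the opposite sign in KD3 against KD2, at 0.37 ± 0.13 (adjusted p = 0.015), a smaller difference in KD1 against KD2, at 0.31 ± 0.12 (adjusted p = 0.028), and 0.07 ± 0.15 in KD3 against KD1 (adjusted p = 0.746), so that the lower level in KD3 rests on the main probe set.

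NFKB2 had medians of 7.41 in KD3, 7.10 in KD1 and 6.07 in KD2, higher by 1.32 ± 0.12 in KD3 than in KD2 (adjusted p = 6.7e-13) and by 0.90 ± 0.11 in KD1 than in KD2 (adjusted p = 3.5e-09). It also passed in KD3 against KD1, at 0.42 ± 0.14 (adjusted p = 0.011), where the other probe sets gave 0.05 and -0.18. Against KD2 these gave 0.88 and 0.03 in KD3 and 0.83 and 0.21 in KD1. RELB had medians of 6.73 in KD3, 6.62 in KD1 and 6.16 in KD2, and was higher than in KD2 by 0.58 ± 0.11 in KD3 and 0.42 ± 0.10 in KD1. NFKB1 had medians of 9.74 in KD3, 10.2 in KD1 and 9.69 in KD2, and was higher in KD1 than in KD2 by 0.48 ± 0.05 and lower in KD3 than in KD1, at -0.48 ± 0.07. NFKBIA passed narrowly in KD1 against KD2 (0.45 ± 0.19, adjusted p = 0.048), and no longer passed with quantile normalisation (0.43) or with limma's robust variance estimate (0.45). The main probe sets of REL, NFKBIE and TNFAIP3 did not pass in any of these comparisons. Other probe sets of REL did, and 1 was higher in KD3 than in KD2 by 0.88 ± 0.12 (adjusted p = 2.8e-08) and than in KD1 by 0.82 ± 0.14. Another was higher in KD3 than in KD1 by 0.76 ± 0.17 and lower in KD1 than in KD2, at -0.43 ± 0.13 (adjusted p = 0.0064), and a dim one was higher in KD3 than in KD2 by 0.41 and than in KD1 by 0.50. With any probe set counted, 6 genes passed in KD1 against KD2, 4 in KD3 against KD2 and 4 in KD3 against KD1. When the RELA and PIK3CB siRNA arrays were left out of the fit, TNFAIP3 and NFKBIE also passed in KD1 against KD2 (0.46 and 0.17), TNFAIP3 in KD3 against KD2 (0.53) and NFKBIA in KD3 against KD1 (-0.50). The share of all probe sets passing in that fit is not given here.

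The control siRNA and untreated arrays are the only replicated groups. None of the 8 genes passed in limma (lowest adjusted p over all probe sets 0.999931), where 0% of the 54675 probe sets did and 97 had an unadjusted p under 0.05. RELA was at 9.37, 8.66 and 8.24 in control siRNA arrays 1 to 3, and at 9.37, 8.57 and 8.09 in untreated arrays 1 to 3, so that arrays of the same number were closer than arrays of the same group. NFKB2 was at 6.86, 6.04 and 7.05 in the control siRNA arrays and at 7.04, 6.23 and 7.14 in the untreated arrays, with the same order of numbers. Within the pairs of like number, control siRNA minus untreated was -0.19, -0.19 and -0.09 for NFKB2, lower in 3 of 3 pairs, and -0.0016, 0.09 and 0.15 for RELA. With the pairs in the fit NFKB2 did not pass either (adjusted p = 0.874). The 95% intervals of the differences in the fit without pairs were wide, from -0.85 to 1.01 for RELA, from -0.96 to 0.65 for NFKB2 and from -0.43 to 0.70 for NFKBIA, and each spanned 0. Intervals of that fit include the differences between array numbers, so they do not measure the spread within pairs. No interval from the fit with pairs is given here. TNFAIP3 was at 7.38, 6.72 and 7.38 in the control siRNA arrays and at 6.50, 6.60 and 7.42 in the untreated arrays (difference 0.32, interval -0.39 to 1.03). Its level of 10.5 in the PIK3CB siRNA array lay above all 6 of these arrays, as did 11.4 for NFKBIA, which was at 9.04, 8.16 and 8.58 in the control siRNA arrays and 8.42, 8.28 and 8.68 in the untreated arrays. Control siRNA array 3 and untreated array 3 are near copies of each other, since 100% of the probe sets of untreated array 3 lay within 10% of control siRNA array 3, so they carry little independent information on the difference. Without both, none of the 8 genes passed either.

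**Figure D4:**
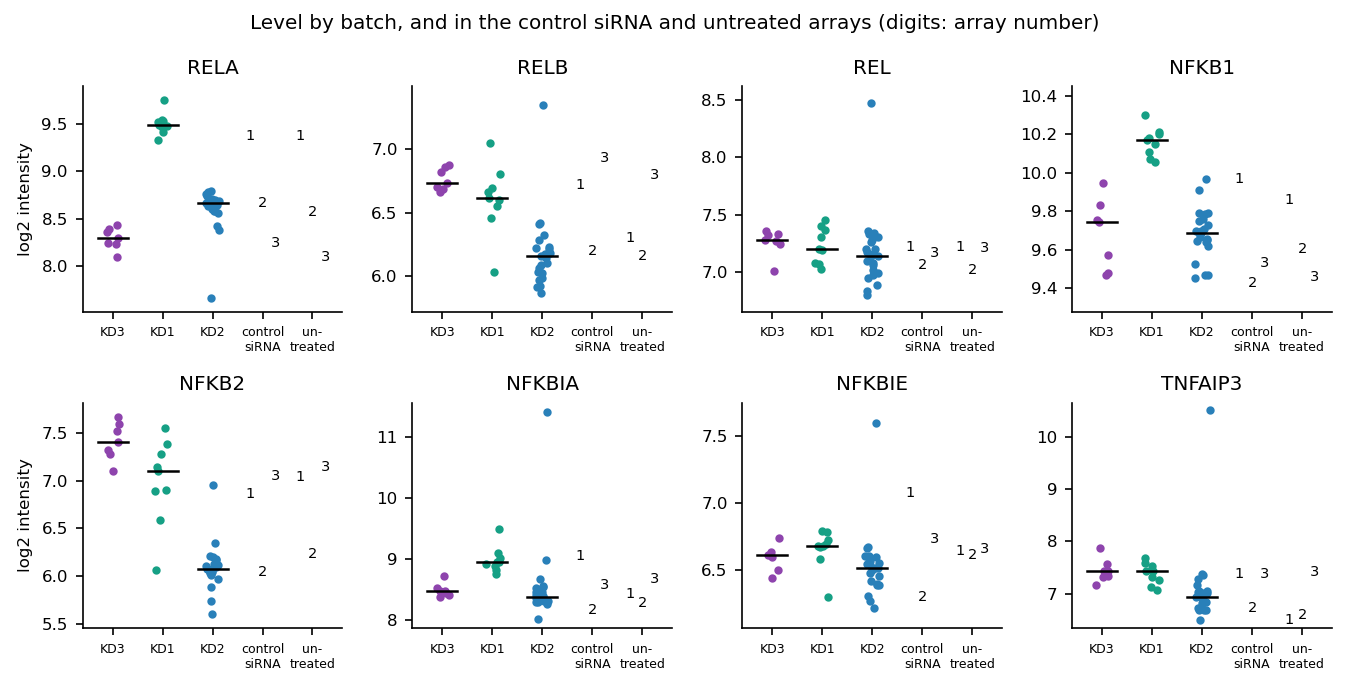
Level (log2 intensity of the main probe set, vertical axis, a scale for each gene) in the arrays of KD3, KD1 and KD2 (points, with the median as a bar) and in the control siRNA and untreated arrays (digits give the array number). RELA is highest in KD1, with medians of 8.29 in KD3, 9.49 in KD1 and 8.66 in KD2, and the single high KD2 points of RELB, REL, NFKBIA, NFKBIE and TNFAIP3 are the PIK3CB siRNA array.

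Likeness across the siRNA arrays was described with Spearman's rho over the 39 arrays after centring on the batch medians, with no test, since the arrays share batches, normalisation and in part targets of 1 pathway. The 28 pairs of the 8 genes had a median rho of 0.20, from -0.14 to 0.57, and 1 pair reached 0.5. This pair was RELB and TNFAIP3 (rho 0.57, and 0.53 without the PIK3CB siRNA array), each of which was at position 2 of 19774 genes in likeness to the other. REL and NFKBIA followed at 0.47. Pearson's r gave a median of 0.48 with 14 pairs at 0.5 or more, but 0.11 with 1 pair without the PIK3CB siRNA array, so the linear likeness rested on that array. NFKBIA and TNFAIP3, for example, had an r of 0.91 over the 39 arrays and of 0.24 without it, and REL and NFKBIA had 0.88 and 0.55. RELA had a rho of 0.34 with RELB, 0.32 with NFKBIA, 0.17 with NFKB2, 0.05 with REL and 0.04 with NFKB1, and of -0.14 with both NFKBIE and TNFAIP3.

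The likeness of the members to the 28 target genes was weak by the same measure. The median rho with the targets was 0.24 for RELB and 0.20 for TNFAIP3, 0.17 for NFKBIE, 0.15 for NFKB2, 0.10 for NFKBIA, 0.06 for NFKB1, 0.00 for REL and -0.06 for RELA, against medians of -0.03 to 0.01 over all genes. It was 0.18 for RELB and 0.14 for TNFAIP3 without the PIK3CB siRNA array.

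The genes with the pattern most like that of each member were sought among genes above noise, which hold 2 of the 8 members and 2 of the 28 targets, so few genes of the pathway could appear. Without that limit TNFAIP3 (0.57) lay above PLAUR for RELB. For RELA they were HLA-E (rho 0.59), PRMT5, CIAPIN1, SENP3 and ADRM1 (0.56), among 4799 genes. For RELB they were PLAUR (0.56), the urokinase receptor, MYO1E, DHX30, TNFRSF10B and FARP2 (0.51). For REL they were RO60 (0.59), RC3H2, SLTM, ELK4 and PTBP3 (0.55), and for NFKB1 MYO1E (0.60), AMOTL1, ZCCHC17, ATOX1 and MELTF (0.52). For NFKB2 they were CDK2 (0.72), a kinase of the cell cycle, DHX9, STIP1, CKAP5 and ABHD12 (0.60). For NFKBIA they were GOLM1 (0.59), CCAR1, MAF, UBE4A and SC5D (0.53), and for NFKBIE IARS1 (0.58), ATP13A3, UBQLN2, SF1 and IFIT5 (0.53). For TNFAIP3 they were PPP1R15B (0.72), a regulator of translation factor dephosphorylation, RMND5A, LAP3, TNFRSF10B and AGO1 (0.49).

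**Figure D5:**
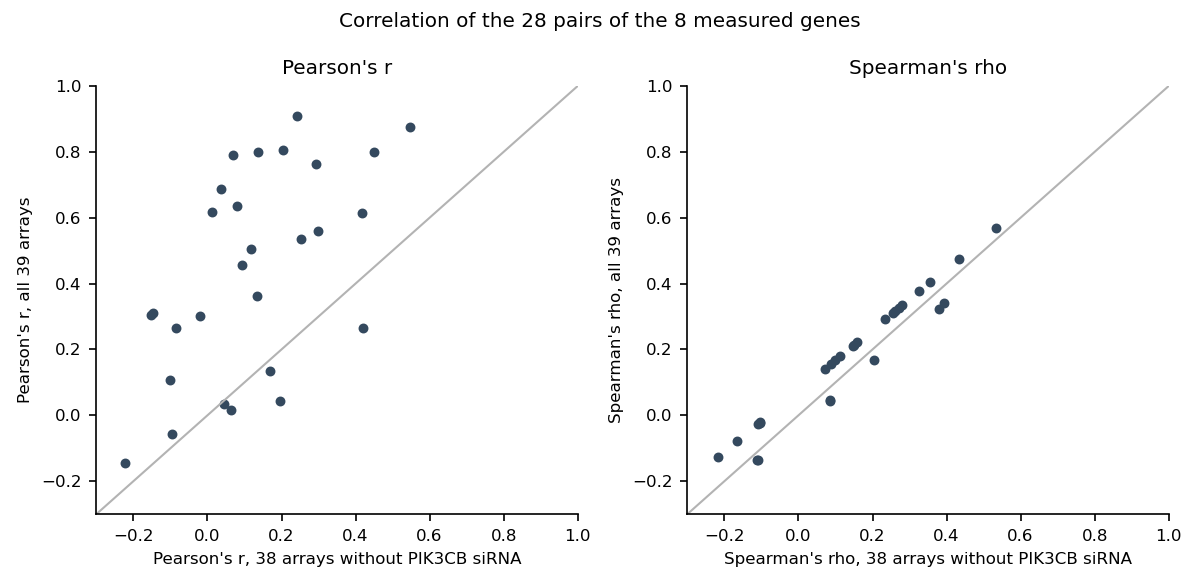
Pearson's r (left) and Spearman's rho (right) of the 28 pairs of the 8 genes over all 39 arrays (vertical axis) against the same without the PIK3CB siRNA array (horizontal axis), with the line of equality in grey. Pearson's r falls to a median of 0.11 without that array, against 0.48 with it, while Spearman's rho stays near the line.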

How the data were processed

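The authors hybridised RNA of A375 cells to U133 plus 2.0 arrays and normalised them with RMA (affy package, version not stated); the deposited values are linear intensities, taken here to log2 and not normalised again. A single gene name was given for 41097 of the 54675 probe sets, several names for 1801 and none for 11777. The genes and lists were chosen with earlier results of these data known. Each array was compared with the median of its batch, as the study scaled by batch. Batches, and control siRNA and untreated arrays, were compared in limma 3.58.1 (R 4.3.3) with Benjamini-Hochberg adjustment over all probe sets, and tested on simulated data. Nothing states whether arrays of a group came from separate experiments, so p-values may measure technical spread. Deviations from the group mean correlated between control siRNA and untreated arrays of like number (0.580, 0.671 and 0.890). The numbers were therefore taken as pairs, though no label states this and correlations between unlike numbers are not given. The main fit left the pairs out, and an alternative had them as a block. All 8 measured genes were named, with up to 8 genes per list of largest difference in the RELA or PIK3CB siRNA array, the 5 genes most like each member, and each member's highest and lowest array. Alternatives varied the reference, normalisation, probe set, noise filter, size, arrays and correlation. Arrays have no read depth, and their number limits the precision. Python 3.11.15, numpy 2.4.6, pandas 2.3.3 and scipy 1.17.1 were used.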

Additional observations from a re-analysis of the deposited data

Results flagged for a closer look

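Of 16 sets of values, those of the 8 genes in the 7 KD3 and the 9 KD1 arrays, 5 held an array whose gap to its nearest neighbour took a large share of the range. Arrays of a batch carry different siRNAs and are not replicates, and chance alone marks about 5% of such sets. In KD3, REL was lowest after CCNB2 siRNA (gap 0.675 of the range) and NFKBIA highest after MCM2 siRNA (0.589). In KD1, RELA was highest after CDC2 siRNA (0.501), NFKBIA highest after FOXO3A siRNA (0.541) and NFKBIE lowest after TCEA1 siRNA (0.571). The 23 KD2 arrays were too many for this rule.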

How the results depend on the processing

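RELA stayed the lowest of the KD2 arrays in the RELA siRNA array under all 6 alternatives, between -1.09 and -0.95. In that array 3 genes passed relative to the control siRNA mean and 0 at a size of 1. In the PIK3CB siRNA array 0 genes passed when only genes with a batch median above noise were counted, which leaves RELA and NFKB1. In the RB1 siRNA array, whose alternatives were chosen after seeing the data, 1 gene passed against the median of all 45 arrays (RELA, higher), 4 against the control siRNA mean (RELA and NFKB1 higher, RELB and NFKB2 lower), 1 with the mean of all probe sets, 1 at a size of 1 and 0 above noise. With probe sets above noise only, 1 gene passed in KD3 against KD2 and 2 in KD1 against KD2. The median likeness of 0.20 was 0.48 with Pearson's r, 0.45 without batch centring, 0.091 with Pearson's r without the 2 arrays farthest from the median and 0.070 with the other probe sets. Some differences that passed no test changed sign. With quantile normalisation these were NFKB1 in KD3 against KD2 (-0.037), REL in KD3 against KD1 (-0.0097), and REL (-0.031) and NFKB1 (-0.0047) in control siRNA against untreated. NFKBIA in KD3 against KD2 was 0.084 without the RELA and PIK3CB siRNA arrays, and NFKB1 in control siRNA against untreated was -0.035 without array 3 of both groups. Leaving out 1 array at a time, control siRNA against untreated ranged from -0.23 to 0.43 for RELA, -0.066 to 0.042 for REL, -0.16 to 0.11 for NFKB1, -0.44 to 0.15 for NFKB2, -0.091 to 0.35 for NFKBIA and -0.13 to 0.26 for NFKBIE, all past no threshold. Each of these fits keeps the array of like number in the other group, so the ranges also hold differences between array numbers. Without array 3 of both groups RELA was at 0.045. With the replicate block, which pairs arrays by number, 0 genes passed in control siRNA against untreated, as without it, and the block applies to no other comparison. The causes of these changes were not tested. No depth limits apply to arrays, and for the 6 genes below noise in KD2 small differences are not precise.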
